A study of Homo sapiens with 16 samples.

Results

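The 7 genes LCP1, DMTN, FAM20A, TRPC4, ALCAM, FOXP4 and SLC14A2 were examined for their response to knockdown of SALL4 and of VRTN in human embryonic stem cells. They were selected on their read counts as genes that SALL4 siRNA and VRTN siRNA move in opposite directions, in the same 3 comparisons that describe them here (SALL4 siRNA against the controls, VRTN siRNA against the controls, and SALL4 siRNA against VRTN siRNA), so their values there are a description and carry no test. They are 7 of 60675 gene rows and of 19772 genes with enough counts to be tested, and all 7 passed that filter. The group means followed the proposed pattern for 6 of the 7. SLC14A2 went against it, since it was at 0 counts in every control library and present after both knockdowns.

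SALL4 is a zinc finger transcription factor of the pluripotent state that is known to bind AT-rich DNA. VRTN (vertnin) is a DNA-binding protein best known from the control of vertebral number in pigs. The 7 genes do not form 1 known pathway. LCP1 (L-plastin) bundles actin filaments and is best known from leukocytes. DMTN (dematin) bundles actin and ties it to the spectrin membrane skeleton of red cells. FAM20A is a pseudokinase of the secretory pathway that acts with the kinase FAM20C on enamel and other secreted proteins. TRPC4 is a cation channel that lets calcium in after receptor signalling, ALCAM (CD166) is an adhesion molecule of the immunoglobulin superfamily, FOXP4 is a forkhead transcription factor, and SLC14A2 is the urea transporter of the kidney.

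Polyadenylated RNA was sequenced in 16 libraries of H9, an established human embryonic stem cell line, in which every group carried EGFP under the REX1 promoter and grew without feeder cells on Matrigel in mTeSR1. Pooled siRNAs against SALL4 and VRTN (48 h) and against DSCC1 and SEPHS1 (72 h) were used with 3 biological replicates each. Of the 4 control libraries, 2 received a pool against luciferase of Renilla (Luciferase) and 2 a control siRNA (Control), for which the labels give no harvest time. All pools were transfected at 30 to 50 nM; the SALL4, DSCC1, SEPHS1 and Luciferase pools were esiRNAs, whereas the VRTN pool was an siRNA from another supplier, and the kind of the Control siRNA is not given in the labels. The kind of siRNA and the target therefore cannot be told apart between SALL4 and VRTN, and the harvest time and the target cannot be told apart between the 48 h and the 72 h groups.

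Library totals ran from 18597262 to 28662389 counts. VRTN fell to 14.9% of the controls in its own knockdown, from 143 ± 9.12 to 21.3 ± 2.24 CPM (counts scaled to the library's effective total; SD, n = 4 and n = 3; edgeR quasi-likelihood adjusted p = 2.04e-16). SALL4 was at 77.9% of the controls in its own, 213 ± 21.1 against 274 ± 25.3 CPM, and did not pass the test (edgeR adjusted p = 0.0562). Neither siRNA moved the other's target past the test: SALL4 was at 269 ± 18.1 CPM under VRTN siRNA and VRTN at 145 ± 9.80 CPM under SALL4 siRNA (SD, n = 3 each). Of 10 pluripotency markers, 9 had counts, with a summed level of 4624 to 5346 CPM in the controls, 3732 to 3913 CPM under SALL4 siRNA and 4960 to 5357 CPM under VRTN siRNA. Of the 9, DNMT3B (-1.31; edgeR adjusted p = 1.70e-08) and PODXL (-0.48; edgeR adjusted p = 0.00930) fell under SALL4 siRNA and 0 rose. POU5F1 (0.26), NANOG (0.55), SOX2 (0.13) and LIN28A (0.10) had log2 fold changes above 0 there that did not pass. TDGF1 (-0.42), L1TD1 (-0.25) and DPPA4 (-0.12) had values below 0 there that did not pass either. Under VRTN siRNA only DPPA4 passed (0.38, edgeR adjusted p = 0.0451). Whether the marker calls hold with single libraries left out was not examined. ZFP42, the gene of REX1, was listed at 0 in all 16 libraries. Whether this 0 means that the transcript was absent was not tested, and the annotation used for the counts is not given. SALL4 replicate 3 stood apart from the other 2 SALL4 libraries for LCP1, TRPC4 and ALCAM. The log2 fold changes of these genes under SALL4 siRNA against the controls are therefore given with and without it. Their group means and distances between the knockdowns include it.

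LCP1 was about equally far above the controls under SALL4 siRNA as below them under VRTN siRNA. It lies on the minus strand of GRCh38 at chr13:46125920-46211871. Its level was 16.4 and 14.95 CPM in the Luciferase libraries and 15.3 and 20.8 CPM in the Control libraries. Under SALL4 siRNA it was 51.6, 57.2 and 93.1 CPM, and under VRTN siRNA it was 3.47, 4.11 and 3.70 CPM. Every SALL4 library was above, and every VRTN library below, all 4 controls. The log2 fold change was 2.0 (SE 0.23) for SALL4 and -2.16 (SE 0.26) for VRTN, a distance of 4.16 (SE 0.29) between the knockdowns. Without SALL4 replicate 3, which had the highest level, the SALL4 value was 1.71. The VRTN libraries agreed closely, with 83 to 90 counts each.

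The window before the RefSeq start of LCP1 was lower in GC than those of TRPC4, ALCAM and FOXP4, as were the 2 SLC14A2 windows. RefSeq (GRCh38.p14) gave promoter windows for LCP1, TRPC4, ALCAM and FOXP4 and 2 for SLC14A2, each 250 bases before a RefSeq start. In GENCODE 29 the LCP1 and TRPC4 windows lie inside the annotated gene, with 147 of the LCP1 bases and all 250 of the TRPC4 bases in exons of that gene. Of the FOXP4 window 113 bases lie in exons of FOXP4-AS1, on the opposite strand, and of 1 SLC14A2 window 98 bases lie in exons of AC090376.1. The ALCAM window and the other SLC14A2 window overlap no exon. GC content was 41.2% for LCP1, where 14.9% of 35116 such windows were lower, and 48% and 47.2% for SLC14A2. It was 67.2% for TRPC4, 68.8% for ALCAM and 66.4% for FOXP4, against a median of 58% over all windows. The LCP1 window held 2 CpG dinucleotides and the SLC14A2 windows 1 and 5. The 3 GC-rich windows held 17 to 21, and the median window held 11. Because the genes that moved together do not share a base composition, the LCP1 stretch outside its annotated exons is printed here for comparison with the ALCAM and FOXP4 windows further on. It lies in an intron of the longer GENCODE 29 gene model, from 250 to 148 bases before the RefSeq start, at chr13:46182325-46182427 on the minus strand, with a match to TATAAA in capitals.
LCP1: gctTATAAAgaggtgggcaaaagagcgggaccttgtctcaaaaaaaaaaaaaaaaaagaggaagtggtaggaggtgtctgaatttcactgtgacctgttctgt
Short motifs were searched on both strands, with overlapping matches counted, and in these windows no match to a motif overlapped a match to another motif. The TATA box was searched as TATAAA. The GC box was searched as GGGCGG, and an AT-rich motif as ATATT. The TATA box matched 2 times in the whole LCP1 window and 1 time in 1 of the SLC14A2 windows, and in none of the TRPC4, ALCAM and FOXP4 windows, while 10.7% of all windows held it. None of the 6 windows held the AT-rich motif, which 21.4% of all windows held. These matches are letters in a window only.

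DMTN, the other actin bundler, followed LCP1 at a lower level. It lies at chr8:22048995-22082527 on the plus strand. The controls were at 3.68 and 4.597 CPM with Luciferase siRNA and at 3.09 and 5.92 CPM with Control siRNA. SALL4 siRNA libraries were at 9.01, 7.80 and 12.6 CPM and VRTN siRNA libraries at 0.530, 0.644 and 1.32 CPM. Neither group overlapped the controls. The log2 fold changes were 1.18 (SE 0.39) and -2.37 (SE 0.45), with 3.55 (SE 0.48) between the knockdowns. VRTN replicate 3 was the highest of its group, and without it the VRTN value was -2.87 and the distance 4.05. The VRTN libraries held only 13 to 32 DMTN counts each.

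LCP1 and DMTN are known from blood cells, so blood markers were summed for comparison. In the controls LCP1 itself was at 14.95 to 20.8 CPM and DMTN at 3.09 to 5.92 CPM. The summed level of 7 leukocyte markers was 5.00 to 6.48 CPM in the controls, 1.17 to 3.84 CPM under SALL4 siRNA and 2.58 to 5.71 CPM under VRTN siRNA, with PTPRC, the defining leukocyte marker, at 0 in every group. The summed level of 12 erythroid markers was 3.33 to 10.1 CPM in the controls, 3.79 to 6.33 CPM under SALL4 siRNA and 1.35 to 7.65 CPM under VRTN siRNA, with GYPB, ALAS2 and GATA1 at 0 in every group. For both sums no SALL4 library exceeded the highest control. In bulk RNA, fewer cells of a type and less RNA per cell cannot be told apart.

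FAM20A was uniform under SALL4 siRNA and uneven among the controls. The gene lies at chr17:68535113-68601389 on the minus strand. The Luciferase libraries were at 17.3 and 19.9 CPM and the Control libraries at 3.06 and 12.3 CPM. Under SALL4 siRNA the level was 36.3, 35.9 and 37.1 CPM, and under VRTN siRNA 2.77, 2.68 and 1.07 CPM. All SALL4 libraries were above and all VRTN libraries below every control, but Control replicate 1 was close to the VRTN libraries. The log2 fold changes were 1.61 (SE 0.32) for SALL4 and -2.46 (SE 0.37) for VRTN, with 4.07 (SE 0.40) between the knockdowns. The choice of control moved them: without Control replicate 2 they were 2.27 and -1.80, with Luciferase as the only control 0.97 and -3.10, and with Control siRNA as the only control 2.24 and -1.83. The distance between the knockdowns uses no control library.

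TRPC4 was high in 2 of the 3 SALL4 libraries. It lies at chr13:37636636-37870425 on the minus strand, on the same chromosome as LCP1. The controls were at 5.10 and 6.56 CPM with Luciferase siRNA and at 3.13 and 4.12 CPM with Control siRNA. SALL4 replicates 1 and 2 were at 18.9 and 20.03 CPM and replicate 3 at 5.62 CPM, which was inside the control range. VRTN siRNA libraries were at 1.96, 1.14 and 1.15 CPM, all below the controls. The log2 fold changes were 1.69 (SE 0.40) for SALL4, or 2.09 without SALL4 replicate 3, and -1.69 (SE 0.44) for VRTN.

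ALCAM moved over a smaller range. It lies at chr3:105366909-105576900 on the plus strand. Luciferase libraries were at 20.1 and 13.7 CPM and Control libraries at 12.6 and 13.8 CPM. SALL4 siRNA libraries were at 37.5, 38.0 and 25.7 CPM, and VRTN siRNA libraries at 8.19, 9.07 and 5.88 CPM. The 3 sets did not overlap, and SALL4 replicate 3 was again the lowest of its group. The log2 fold changes were 1.18 (SE 0.23) and -0.95 (SE 0.24), with 2.13 (SE 0.26) between the knockdowns. Without SALL4 replicate 3 the SALL4 value was 1.35. The window before the start, chr3:105366659-105366908 on the plus strand, is shown as a GC-rich window of a gene that moved with LCP1, with its match to GGGCGG in capitals.
ALCAM: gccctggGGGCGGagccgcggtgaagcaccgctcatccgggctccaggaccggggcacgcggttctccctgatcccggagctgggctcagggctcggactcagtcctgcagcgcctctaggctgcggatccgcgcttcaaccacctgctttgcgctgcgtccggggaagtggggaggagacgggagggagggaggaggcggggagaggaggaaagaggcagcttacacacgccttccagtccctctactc

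FOXP4, the transcription factor among the 7, had the smallest distance between the knockdowns apart from SLC14A2. It lies at chr6:41546426-41602384 on the plus strand. Its level was 48.0 and 40.0 CPM with Luciferase siRNA and 43.8 and 33.9 CPM with Control siRNA. SALL4 siRNA libraries were at 77.1, 56.4 and 74.5 CPM and VRTN siRNA libraries at 25.4, 23.1 and 16.9 CPM. No library of either knockdown lay inside the control range. The log2 fold changes were 0.75 (SE 0.17) and -0.92 (SE 0.17), with 1.67 (SE 0.18) between the knockdowns. The window before its RefSeq start, chr6:41546131-41546380 on the plus strand, is shown as another GC-rich window, of the transcription factor. It held 4 matches, in capitals as CCGCCC, the other strand of GGGCGG, and 2 of the 4 share a base.
FOXP4: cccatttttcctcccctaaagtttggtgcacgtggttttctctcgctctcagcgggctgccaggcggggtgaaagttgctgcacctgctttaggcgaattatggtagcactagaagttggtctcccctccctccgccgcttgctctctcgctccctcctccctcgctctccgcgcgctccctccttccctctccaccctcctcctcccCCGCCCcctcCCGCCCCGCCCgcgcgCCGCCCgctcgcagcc
The TRPC4 window held 3 matches to GGGCGG, the ALCAM and LCP1 windows 1 each and the SLC14A2 windows 0, and 42.6% of all windows held at least 1.

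SLC14A2 did not move in opposite directions. It lies at chr18:45212995-45683686 on the plus strand. All 4 control libraries and all 3 SEPHS1 siRNA libraries had 0 counts. SALL4 siRNA libraries had 80, 38 and 95 counts, VRTN siRNA libraries 21, 55 and 40 counts, and DSCC1 siRNA libraries 14, 0 and 13 counts. The mean was 2.74 ± 1.30 CPM under SALL4 siRNA and 1.74 ± 0.939 CPM under VRTN siRNA (SD, n = 3 each). A floor of 3 counts per control library was 0.117 CPM on average. The mean was 23.4-fold above it under SALL4 siRNA and 14.9-fold above it under VRTN siRNA. These ratios leave out the spread between libraries. The lowest library was at 1.44 CPM under SALL4 siRNA and at 0.856 CPM under VRTN siRNA. SLC14A2 had 0 counts in 8 of the 16 libraries. Of 2644 genes with a mean of 10 to 30 counts, 86.7% had 0 in at least 1 library and 33.3% in at least 4. Only 1, SLC14A2 itself, was at 0 in all 4 controls and above 0 in every SALL4 and VRTN library. Because SLC14A2 was chosen on these same counts, nothing is read from its being the only 1. Both knockdowns' SLC14A2 levels overlapped, and the log2 difference between them was 0.65 (SE 1.30). The gene shares 107 exonic bases with an antisense transcript, AC023421.2, and the strand setting of the counting is not given in the sources used here.

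**Figure D1:**
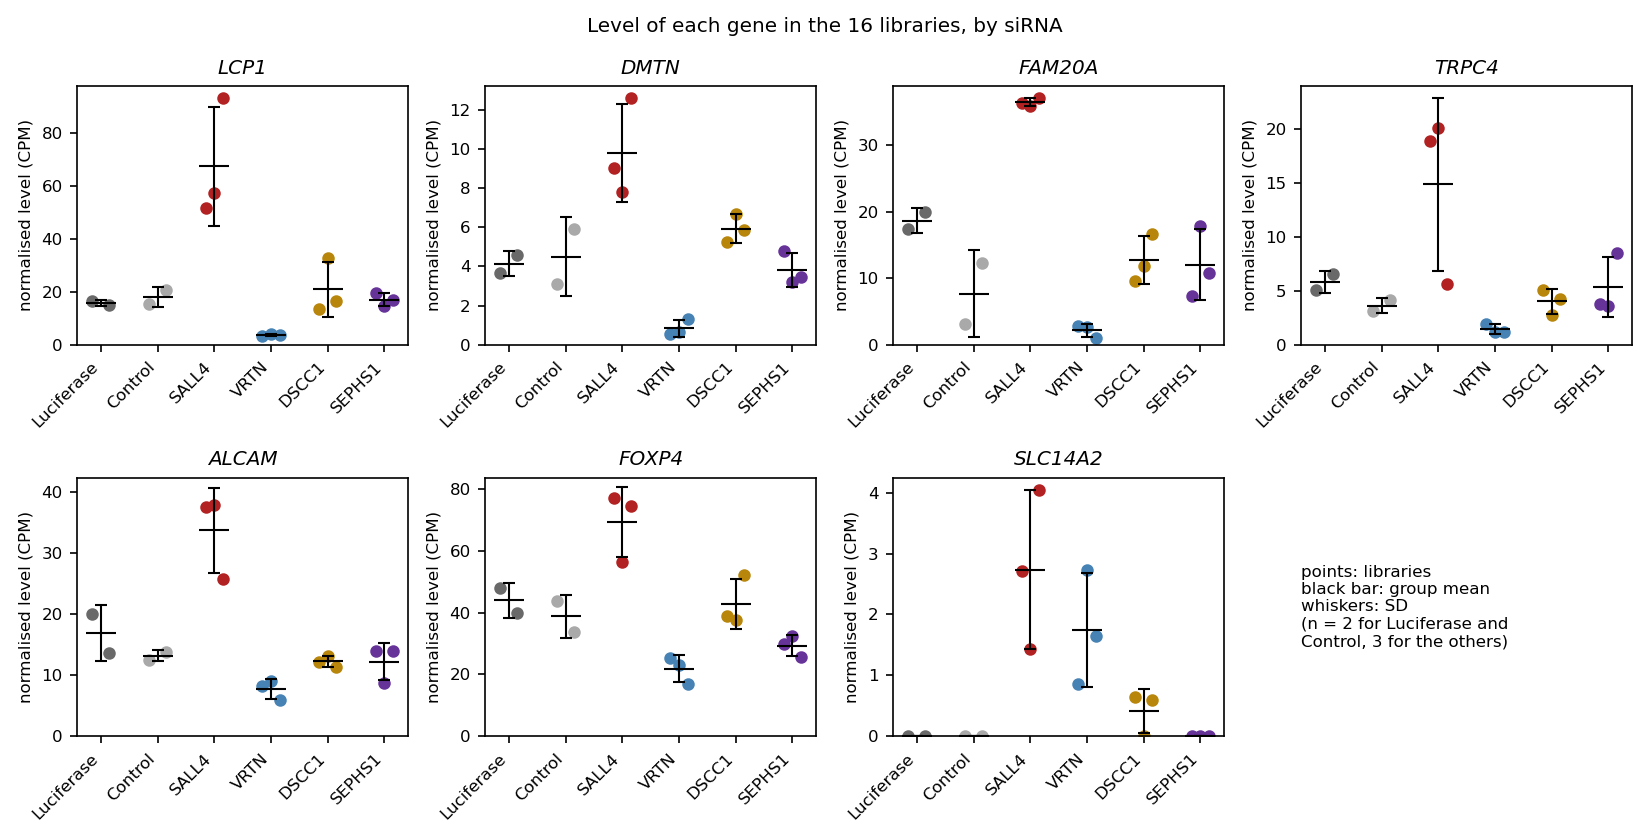
Level of each of the 7 genes in CPM (linear axes from 0) in the 16 libraries, by siRNA; points are libraries, bars are group means and whiskers SD (n = 2 for Luciferase and Control, n = 3 for the others). In LCP1, DMTN, FAM20A, ALCAM and FOXP4 the SALL4 points lie above and the VRTN points below all 4 controls; in TRPC4 1 SALL4 point, at 5.62 CPM, lies inside the control range, and SLC14A2 is at 0 in the controls.

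For SALL4 siRNA all 3 libraries exceeded every control in 6 of 7 genes (the exception was TRPC4), where 6.82% of all tested genes did so. For VRTN siRNA all 3 libraries were under every control in 6 of 7 (the exception was SLC14A2), where 6.68% of all tested genes were. Both held in 5 of 7, against 0.309% of all tested genes, and the reverse pattern held in 0.131%. The genes were chosen for this pattern, so nothing is read from these shares.

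At an adjusted p under 0.05 (edgeR quasi-likelihood test, Benjamini-Hochberg over 19772 genes), 2.98% of genes were called for SALL4 siRNA, 1.13% for VRTN siRNA and 2.44% between the knockdowns. In both comparisons and in opposite directions 11 genes (0.0556%) were called, 4 of them LCP1, FAM20A, ALCAM and FOXP4. LCP1 and FAM20A were among them when any 1 library was left out. ALCAM was not without Luciferase replicate 1, Control replicate 2, SALL4 replicate 2, DSCC1 replicate 1 or any of the 3 VRTN replicates, and FOXP4 was not without SALL4 replicate 1. The values at the threshold were an adjusted p of 0.0345 for ALCAM under VRTN siRNA (edgeR), just inside, and 0.0504 for TRPC4 under VRTN siRNA (edgeR), just outside. DMTN was outside under SALL4 siRNA (edgeR adjusted p = 0.106). The genes were chosen on their counts in these comparisons, so these values are not tests of them. The number of genes called in opposite directions rested on single libraries: leaving out SALL4 replicate 3 gave 27, replicate 1 gave 6 and replicate 2 gave 7, and leaving out VRTN replicate 1 gave 7. Genes called in both comparisons in the same direction numbered 73 (0.369%). Both comparisons share the 4 controls.

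The other 7 genes called in opposite directions were ACTG2, IGSF21, LRATD2, IGFBP4, SLC7A8, CCN1 and CHGA. ACTG2, the smooth muscle gamma actin, moved most: 61.3 ± 12.6 CPM in the controls (SD, n = 4), 651 ± 70.1 CPM under SALL4 siRNA and 16.7 ± 5.41 CPM under VRTN siRNA (SD, n = 3 each). CCN1, a secreted matrix protein, was at 176 ± 10.3, 259 ± 10.4 and 120 ± 3.07 CPM in the same order. CHGA, the secretory granule protein chromogranin A, was the only 1 of the 11 that was lower under SALL4 siRNA (log2 fold change -0.73, SE 0.20) and higher under VRTN siRNA (0.76, SE 0.19). Its calls were lost without any 1 of several libraries, with edgeR adjusted p from 0.0568 (without Luciferase replicate 2) to 0.162 (without Control replicate 1) under SALL4 siRNA and from 0.0637 (without Luciferase replicate 1) to 0.228 (without Control replicate 2) under VRTN siRNA. Leaving out 1 library also ended a call of IGSF21 (edgeR adjusted p = 0.108 under SALL4 siRNA without Control replicate 1), LRATD2 and IGFBP4 (0.275 and 0.278 under SALL4 siRNA without SALL4 replicate 1) and SLC7A8 (0.305 under VRTN siRNA without VRTN replicate 3). ACTG2 and CCN1 kept both calls when any 1 library was left out.

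**Figure D2:**
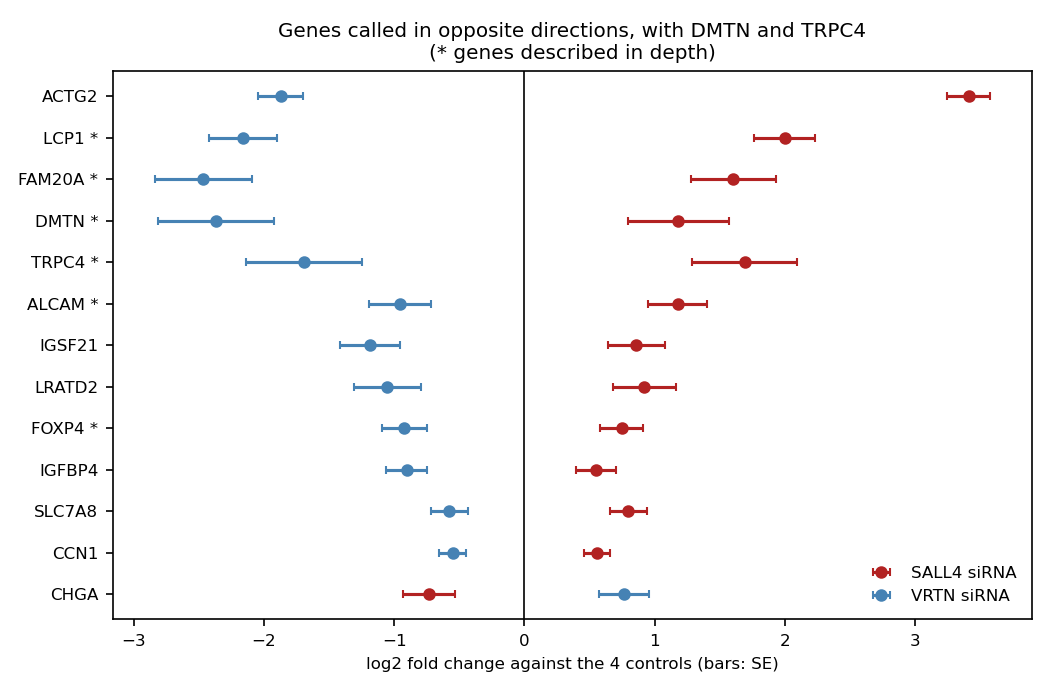
Log2 fold change against the 4 controls (x axis; bars are SE) under SALL4 siRNA and VRTN siRNA for the 11 genes called in opposite directions and for DMTN and TRPC4, which were not. Stars mark genes described in depth; ACTG2 has the largest SALL4 value (3.41) and FAM20A the lowest VRTN value (-2.46), and CHGA alone has the signs exchanged.

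Per kilobase of exon, which allows levels of different genes to be compared, the order of the genes shifted between the groups. In the controls FOXP4 was highest at 6.71 ± 0.971 CPM per kb, followed by LCP1 at 3.33 ± 0.533, FAM20A at 2.12 ± 1.20, ALCAM at 2.10 ± 0.477, TRPC4 at 1.12 ± 0.348 and DMTN at 0.966 ± 0.275 (SD, n = 4). FAM20A and ALCAM, and TRPC4 and DMTN, differed by less than their spread. Under SALL4 siRNA LCP1 was at 13.3 ± 4.45 and FOXP4 at 11.2 ± 1.83 CPM per kb (SD, n = 3), again within their spread. Under VRTN siRNA FOXP4 stayed highest at 3.53 ± 0.711 CPM per kb, and LCP1 (0.743 ± 0.0649) was under ALCAM (1.07 ± 0.230).

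The DSCC1 and SEPHS1 libraries were not in the comparisons that chose the genes, but the edgeR fit shares its estimate of the spread over all groups. The comparison of these knockdowns with each other uses no control. SEPHS1 fell to 14.9% of the controls in its own knockdown (edgeR adjusted p = 9.09e-15); DSCC1, which is at only 3.93 ± 0.853 CPM in the controls, was at 20.5% and did not pass the test (edgeR adjusted p = 0.486). SEPHS1 also fell to 50.4% of the controls under SALL4 siRNA (edgeR adjusted p = 1.13e-05). Between DSCC1 and SEPHS1 siRNA, 0 of the 7 genes were called by edgeR's quasi-likelihood test, DESeq2 or limma-voom, where edgeR called 0.268% of all genes. SLC14A2 and FOXP4 had an unadjusted p under 0.05, where 9.58% of all genes did. FOXP4 was 39.0, 37.6 and 52.2 CPM under DSCC1 siRNA and 30.0, 32.5 and 25.6 CPM under SEPHS1 siRNA, with every DSCC1 library above every SEPHS1 library. Its log2 difference was 0.55 (SE 0.18, 95% interval 0.18 to 0.91; edgeR adjusted p = 0.248). DMTN also had all DSCC1 libraries (5.23, 6.69 and 5.88 CPM) above all SEPHS1 libraries (4.80, 3.20 and 3.45 CPM), with a log2 difference of 0.64 (95% interval -0.23 to 1.5; edgeR adjusted p = 0.605). Over all genes, 8.5% had this order.

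LCP1 was 13.4, 32.8 and 16.6 CPM under DSCC1 siRNA and 19.4, 14.6 and 16.8 CPM under SEPHS1 siRNA. The groups overlapped, and DSCC1 replicate 2 was the highest. The log2 difference was 0.31 (95% interval -0.21 to 0.82), and -0.18 without DSCC1 replicate 2. FAM20A was 9.62, 11.8 and 16.7 CPM against 7.34, 17.8 and 10.8 CPM, a log2 difference of 0.08 (95% interval -0.63 to 0.80). ALCAM was 12.2, 13.2 and 11.3 CPM against 14.05, 8.79 and 13.9 CPM, and its log2 difference was 0.00 (95% interval -0.50 to 0.51). TRPC4 was 5.04, 2.78 and 4.26 CPM against 3.82, 3.63 and 8.53 CPM, a log2 difference of -0.40 (95% interval -1.30 to 0.50). For LCP1, FAM20A, ALCAM and TRPC4 both groups overlapped, and the intervals bound how far they could differ.

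Against the controls, which also entered the choice of the genes, neither of these knockdowns moved any of the 7 past the test. For DSCC1 siRNA 0 of 7 were called by edgeR (0.0455% of all genes) or limma-voom, and DESeq2 gave none of the 7 an adjusted p, with SLC14A2 alone at an unadjusted p under 0.05 (5.84% of all genes). For SEPHS1 siRNA 0 of 7 were called by edgeR (1.53% of all genes), DESeq2 or limma-voom, with FOXP4 alone at an unadjusted p under 0.05 (12.8% of all genes). FOXP4 was below all 4 controls in the 3 SEPHS1 libraries, as were 7.76% of all genes, with a log2 fold change of -0.49 (SE 0.17; edgeR adjusted p = 0.168). Apart from SLC14A2, the log2 fold changes ran from -0.28 to 0.46 for DSCC1 and from -0.49 to 0.21 for SEPHS1, beside 0.75 to 2.0 for SALL4 and -2.46 to -0.92 for VRTN. Whether the responses differ between the 48 h and the 72 h knockdowns was not tested.

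**Figure D3:**
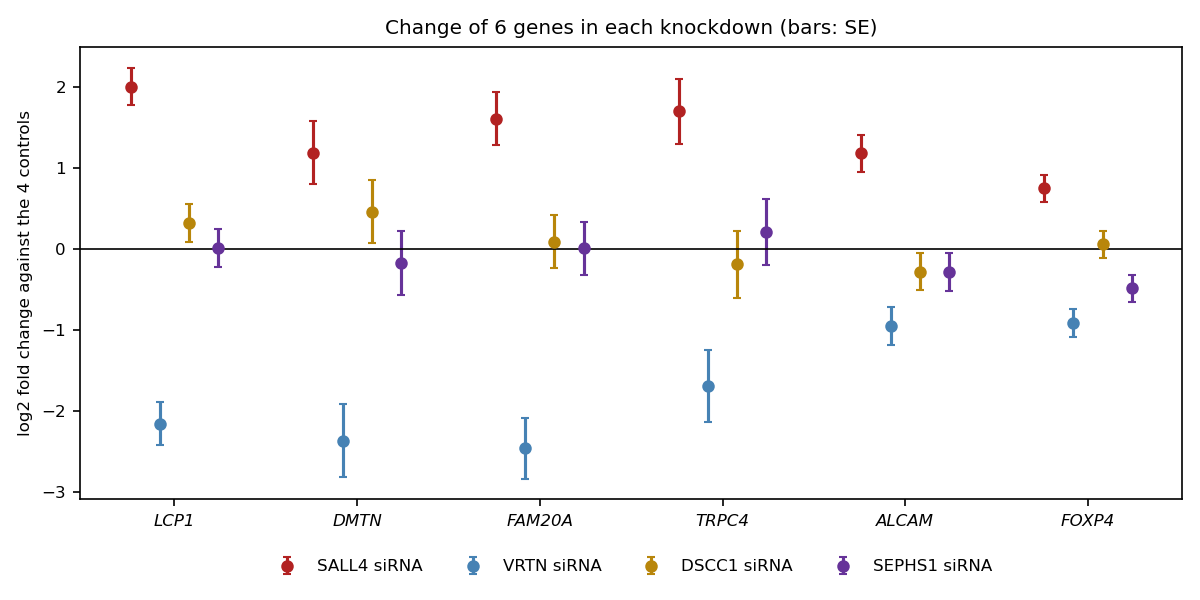
Log2 fold change against the 4 controls (y axis; bars are SE) of the 6 genes other than SLC14A2 in each knockdown. SALL4 values lie from 0.75 to 2.0 and VRTN values from -2.46 to -0.92, and the DSCC1 and SEPHS1 values lie between -0.49 and 0.46.

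The 2 control siRNAs gave 0 of 7 calls, and 0% of all genes, by edgeR, DESeq2 or limma-voom. An unadjusted p under 0.05 was reached by 211 genes (1.07%) with edgeR, FAM20A among them (log2 difference of Control from Luciferase -1.28, SE 0.44; edgeR adjusted p = 1). Without Control replicate 2, which left the 3.06 CPM library alone in its group, the FAM20A difference was -2.61 and passed the test (edgeR adjusted p = 0.0112). The other 5 genes with counts in the controls differed by -0.69 to 0.20.

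The levels of the 6 genes other than SLC14A2 followed each other over the 16 libraries more closely than over the deviations within groups. The 15 pairs of these genes had Pearson r of 0.73 to 0.93 (median 0.83) for log2 CPM over 16 libraries. For deviations from the group means r ran from -0.61 to 0.50 (median 0.01), above 0 in 8 of 15 pairs. Over the 10 libraries without SALL4 or VRTN siRNA it ran from -0.47 to 0.59 (median 0.10). These are descriptions; the points share the group means, and the genes were picked for them. LCP1 and DMTN had the highest r of the 15 pairs each time: 0.93 over 16 libraries, 0.50 within groups and 0.59 over the 10 other libraries. LCP1 and TRPC4 had the lowest r within groups (-0.61) and over the 10 other libraries (-0.47).

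For each gene up to 2 of the genes most like it are given by Pearson r of log2 CPM over the 16 libraries, among 9832 genes. CAV1, the coat protein of caveolae, was close to LCP1 (r = 0.90) and ALCAM (r = 0.94), and ACTG2 to LCP1 (0.90) and FOXP4 (0.92). These genes were picked for their likeness over the same libraries, so their values are a description with no test. CAV1 was at 9.69 ± 1.54 CPM in the controls (SD, n = 4), 22.9 ± 1.72 CPM under SALL4 siRNA (log2 fold change 1.24, SE 0.25) and 4.88 ± 0.237 CPM under VRTN siRNA (-0.99, SE 0.27; SD, n = 3 each). BICD1, a dynein adaptor, was among the closest to FAM20A (0.89) and TRPC4 (0.92), IGFBP4 to TRPC4 (0.91), OLFM1 (0.94) and IGSF21 (0.91) to DMTN, ZNF217 to ALCAM (0.95) and CCN1 to FOXP4 (0.92). OLFM1 had a log2 fold change of -1.02 (SE 0.15) under VRTN siRNA and of 0.28 (SE 0.15) under SALL4 siRNA.

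The genes closest to SLC14A2 had higher levels under both siRNAs, a direction that likeness to SLC14A2 fixes. SLC16A10, an aromatic amino acid transporter (r = 0.93), went from 2.73 ± 0.507 CPM in the controls to 15.9 ± 4.18 CPM under SALL4 siRNA and 10.1 ± 2.08 CPM under VRTN siRNA. GPC4, a cell surface proteoglycan (r = 0.89), went from 484 ± 91.0 CPM to 888 ± 37.7 CPM and 750 ± 73.0 CPM.

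**Figure D4:**
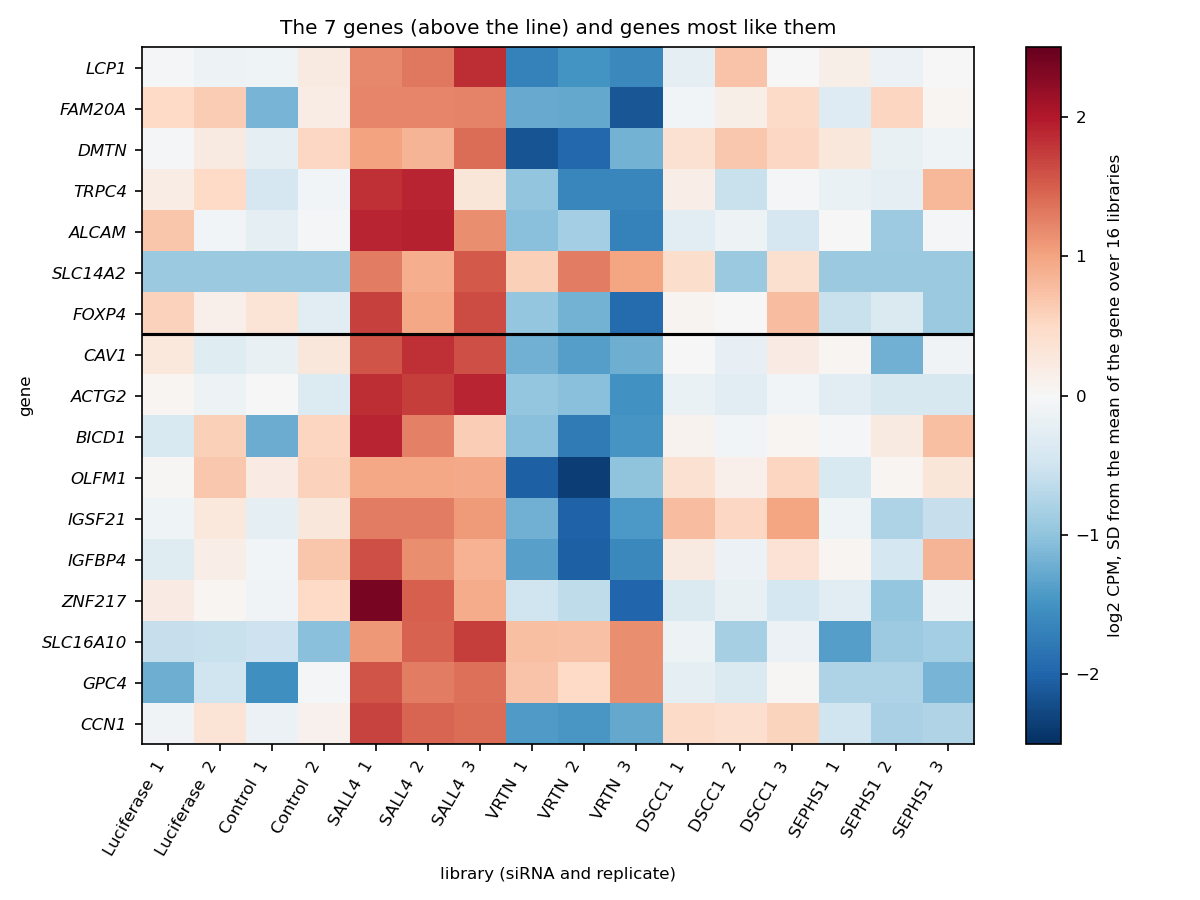
Log2 CPM of the 7 genes (above the line) and of genes most like them (below) in each library, as the distance from the gene's own mean over the 16 libraries in SD units (colour). In most rows the SALL4 columns are red and the VRTN columns blue; SLC14A2, SLC16A10 and GPC4 are red in both.

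Most relatives of the 7 genes passed no test in these knockdowns. Of 118 genes in 7 family lists, 91 were tested. Under SALL4 siRNA 6 were higher (6.59%, beside 1.85% of all genes) and 3 lower (3.30%, beside 1.13%), and under VRTN siRNA 0 were higher (beside 0.445%) and 2 lower (2.20%, beside 0.683%). The median log2 fold change was 0.11 under SALL4 siRNA (0.02 over all genes) and -0.08 under VRTN siRNA (0.02 over all genes). Between SALL4 and VRTN siRNA, 9 were higher (9.89%, beside 1.73%) and 1 lower (1.10%, beside 0.703%). The lists were chosen with earlier results of these data known, so nothing is read from these shares. No relative was called in opposite directions against the controls.

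Among 13 tested actin bundlers and villin headpiece proteins, 2 rose and 0 fell under SALL4 siRNA (median 0.02, as over all genes), and 0 changed under VRTN siRNA (median -0.15). PLS3, the T-plastin paralogue of LCP1, rose from 68.0 ± 8.91 to 111 ± 20.2 CPM (log2 fold change 0.71, SE 0.14; edgeR adjusted p = 0.00233) and kept this call when any 1 library was left out. PLS1, the third plastin, was at 15.3 ± 1.82 CPM in the controls, 17.6 ± 4.35 CPM under SALL4 siRNA and 16.1 ± 0.646 CPM under VRTN siRNA. FSCN1 (fascin) rose by 0.55 (SE 0.14; edgeR adjusted p = 0.0263), a call lost without Control replicate 2 (0.0780), SALL4 replicate 1 (0.265) or SALL4 replicate 2 (0.143). Its difference between SALL4 and VRTN siRNA, 0.78 (SE 0.16; edgeR adjusted p = 0.00283), held without any 1 library.

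Of 21 tested genes of the spectrin and actin membrane skeleton, 2 rose under SALL4 siRNA and 0 changed under VRTN siRNA, with medians of 0.06 and 0.04. ANK1, the ankyrin of red cells, rose from 5.38 ± 0.318 to 19.4 ± 10.4 CPM (1.85, SE 0.34; edgeR adjusted p = 0.00102). ADD1 (adducin) rose by 0.42 (SE 0.12; edgeR adjusted p = 0.0440), a call that leaving out any of 8 libraries ended, with 0.368 without SALL4 replicate 1. Between SALL4 and VRTN siRNA 3 of the 21 were higher, ANK1, TPM1 and MPP1. TPM1 (tropomyosin) was at 199 ± 34.7 against 143 ± 18.5 CPM (edgeR adjusted p = 0.0271), a call not examined with single libraries left out. ANK1 (1.66, SE 0.38) and MPP1 (1.10, SE 0.27) lost their calls without SALL4 replicate 1 (edgeR adjusted p = 0.147 and 0.0632) and without VRTN replicate 1 (0.0843 and 0.114). ANK1 also lost its call without SALL4 replicate 2 (0.0651), and MPP1 without VRTN replicate 2 (0.0816).

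Among the relatives of FAM20A only PKDCC passed the test under SALL4 siRNA. Of 11 tested secretory pathway kinases and substrates, 0 rose and 1 fell under SALL4 siRNA and 0 changed under VRTN siRNA. PKDCC, a secreted tyrosine kinase, fell from 78.9 ± 30.2 to 25.9 ± 7.20 CPM under SALL4 siRNA (-1.60, SE 0.23; edgeR adjusted p = 2.17e-05), the direction opposite to FAM20A. FAM20C, the partner kinase of FAM20A, was at 9.54 ± 4.61 CPM in the controls, 9.54 ± 1.94 CPM under SALL4 siRNA and 11.1 ± 3.28 CPM under VRTN siRNA. FAM20B was at 12.7 ± 0.362, 10.4 ± 1.64 and 11.9 ± 2.78 CPM, and neither passed the test.

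Of 15 tested TRPC and calcium entry genes, 0 changed against the controls under SALL4 or VRTN siRNA, and 2 differed between the knockdowns. TRPC6, a channel of the same family as TRPC4, was at 1.46 ± 0.737 CPM in the controls, 3.68 ± 1.24 CPM under SALL4 siRNA and 0.244 ± 0.0448 CPM under VRTN siRNA. The log2 difference between the knockdowns was 3.88 (SE 0.90; edgeR adjusted p = 0.0111), a call lost without SALL4 replicate 2 (0.0736), VRTN replicate 1 (0.0583) or VRTN replicate 2 (0.0666). The TRPC6 level under VRTN siRNA was near the floor of 3 counts, 0.122 to 0.149 CPM in those libraries, so the size of the difference is uncertain. TRPC1 was at 3.03 ± 0.719, 2.03 ± 0.385 and 3.01 ± 1.34 CPM. PLCB3, a phospholipase upstream of these channels, was higher under SALL4 than under VRTN siRNA (212 ± 44.9 against 133 ± 11.2 CPM; edgeR adjusted p = 0.00157) without exception when any 1 library was left out.

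Of 19 tested adhesion genes of the immunoglobulin superfamily, 1 rose and 2 fell under SALL4 siRNA, and 0 rose and 2 fell under VRTN siRNA. The neural adhesion molecule L1CAM fell by 0.85 on the log2 scale under SALL4 siRNA (edgeR adjusted p = 0.00423). MCAM (CD146) fell by 0.77 under SALL4 siRNA (edgeR adjusted p = 0.0270), the direction opposite to ALCAM, and by 0.78 under VRTN siRNA (edgeR adjusted p = 0.0451). The VRTN call of MCAM was lost when any of 8 libraries was left out, with an edgeR adjusted p of 0.369 without VRTN replicate 3. The SALL4 call of MCAM was not examined in this way. The laminin receptor BCAM fell by 0.60 under VRTN siRNA (edgeR adjusted p = 0.0332), a call lost without any of 7 libraries, with 0.220 without VRTN replicate 1. NECTIN2 rose by 0.53 under SALL4 siRNA (SE 0.11; edgeR adjusted p = 0.00279), or 0.42 without SALL4 replicate 1 (0.0524).

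The other lists were smaller. Of 9 tested FOXP factors and corepressors, 0 changed under VRTN siRNA. FOXP1, a relative of FOXP4, was at 2.22 ± 0.511 CPM in the controls, 3.70 ± 0.597 CPM under SALL4 siRNA and 2.61 ± 0.192 CPM under VRTN siRNA. Of 11 urea and solute channel genes other than SLC14A2, 3 were tested and 0 changed under either siRNA. Under DSCC1 siRNA 0 of the 91 relatives changed, and under SEPHS1 siRNA 3 fell (3.30%, beside 0.931% of all genes). These were PKDCC, NECTIN1 and ITPR3, and without SEPHS1 replicate 3 their edgeR adjusted p was 0.140, 0.0843 and 0.204.

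Sums of trophoblast, endoderm, neural and fibroblast markers lay outside the control range under SALL4 siRNA, VRTN siRNA or both. Those of neural crest, primitive streak and endothelial markers overlapped the controls under both siRNAs. Neural crest sums were 12.8 to 19.2 in the controls, 18.9 to 21.7 under SALL4 siRNA and 12.04 to 18.96 CPM under VRTN siRNA. In the same order primitive streak sums were 2.82 to 10.6, 7.11 to 14.05 and 7.297 to 12.3 CPM. Endothelial sums were 7.796 to 15.5, 10.5 to 15.98 and 6.73 to 12.99 CPM. The summed level of 6 trophoblast markers was 16.4 to 22.8 CPM in the controls, 21.1 to 28.7 CPM under SALL4 siRNA and 6.39 to 15 CPM under VRTN siRNA, the same order as the 6 genes, with CGA at 0 in every group. The SALL4 and control ranges overlapped. TFAP2C, the most abundant of them, fell under VRTN siRNA (-1.0; edgeR adjusted p = 0.0450) and did not pass under SALL4 siRNA (0.66; edgeR adjusted p = 0.179), whereas KRT7, a keratin, fell under SALL4 siRNA (-2.13; edgeR adjusted p = 0.0445). The sum of 4 endoderm markers had the reverse order, 3.92 to 8.91 CPM in the controls, 0.719 to 5.62 CPM under SALL4 siRNA and 10.4 to 14.8 CPM under VRTN siRNA. The SALL4 range overlapped the controls, and 0 of the 4 passed the test under either siRNA. The sum of 5 neural markers was 126 to 136 CPM in the controls, 79.9 to 94.0 CPM under SALL4 siRNA, below every control, and 126 to 136 CPM under VRTN siRNA. NES (nestin), most of that sum, fell under SALL4 siRNA (-0.67; edgeR adjusted p = 0.000784). The sum of 7 fibroblast markers was lower in both knockdowns, 796 to 1713 CPM and 795 to 1207 CPM against 1829 to 2066 CPM, most of it COL1A1. COL1A1 was the only fibroblast marker that passed, with -0.82 under SALL4 siRNA (edgeR adjusted p = 0.00498) and -1.28 under VRTN siRNA (edgeR adjusted p = 4.64e-05). In the same order THY1 (0.41 and 0.36), COL1A2 (0.45 and 0.11), COL3A1 (4.59 and 1.64) and PDGFRB (0.28 and -0.17) did not pass. The marker calls were not examined with single libraries left out. The part of these marker levels in the values of the 7 genes was not tested.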

How the data were processed

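The deposited table holds raw read counts per gene, which the authors made, per the submitters' processing notes, with STAR 2.4.0.1, HTSeq 0.9.1 and the GRCh38 build. Strand setting, annotation release and treatment of reads shared between gene copies are not given in the sources used here. Per the labels' protocols, a Lexogen SENSE kit on poly(A) RNA was read as 80 bp single ends, and RNA came from independent biological replicates. The table holds 60675 identifiers, 33486 without a count in any library. Symbols came from a table of gene names for 41209 of them and from GENCODE 29 for 15846, and 3620 have none. Positions and exon lengths are from GENCODE 29.

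Genes were kept by filterByExpr (19772 kept, 40903 left out), scaled by TMM and tested in R 4.3.3 with the quasi-likelihood test of edgeR 4.0.16, over 6 groups at once. Luciferase and Control were averaged with equal weight as the control level, and genes were called at a Benjamini-Hochberg adjusted p under 0.05. The common dispersion was 0.347. CPM are TMM-scaled. Reads carry no molecular identifiers, so the floor of 3 counts covers counting error only. The pipeline was tested on simulated data.

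The 7 genes and the gene lists were chosen with earlier results of these data known. Named besides them are the 4 targeted genes, the 2 genes of at least 2 log2 CPM most correlated with each, and up to 2 called relatives per list and comparison. Genes called in opposite directions, TPM1 and MCAM under SALL4 siRNA, the uncalled paralogues (PLS1, FAM20B, FAM20C, TRPC1, FOXP1) and the markers were named after their values were seen. Some genes that the rule selects are not reported here. Results were recomputed with DESeq2 size factors or upper quartile scaling, other filters, a replicate block, DESeq2 1.42.0, limma-voom (limma 3.58.1), other sets of samples and leaving out each library.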

Additional observations from a re-analysis of the deposited data

Results flagged for a closer look

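ALCAM had 1 control library apart from the others. Luciferase replicate 1 was at 20.1 CPM and the other 3 controls at 12.6 to 13.8 CPM. Its gap to the next library was 0.836 of the range of the 4 controls, above the 95% critical value of 0.829 in Dixon's test. Chance flags about 1 in 20 groups, and 6 genes were examined in this way. The other 5 were below the critical value.

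In 5 genes every SALL4 library moved 1 way from the controls and every VRTN library the opposite way. The SALL4 and VRTN log2 fold changes differed by 4.16 for LCP1, 4.07 for FAM20A, 3.55 for DMTN, 2.13 for ALCAM and 1.67 for FOXP4. The genes were chosen for this difference, so it was not tested.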

How the results depend on the processing

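The direction of the fold change under SALL4 and VRTN siRNA and between them was kept by LCP1, DMTN, FAM20A, TRPC4, ALCAM and FOXP4 in 28 alternatives each. Of these, 6 values moved by more than 1 SD between replicates. They are the FAM20A values without Control replicate 2, the DMTN values without VRTN replicate 3 and the FAM20A values with control libraries numbered 1 only. The last setting was chosen after seeing the data and gave 2.32 and -1.75. The cause of the shifts in counts below was not tested, except that some settings use fewer samples or more genes.

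In the order SALL4, VRTN, SALL4 against VRTN, DSCC1, SEPHS1 and DSCC1 against SEPHS1, the reported counts of genes called were 590, 223, 482, 9, 303 and 53, with 11 genes called in opposite directions, 4 of them among the 7. Counts that moved by over 1.5 times were as follows. Without a filter VRTN gave 397, SALL4 against VRTN 726, DSCC1 99, SEPHS1 516, DSCC1 against SEPHS1 151 and opposite calls 25, and a stricter filter gave 2 for DSCC1. With DESeq2 VRTN gave 392, DSCC1 52, SEPHS1 533, DSCC1 against SEPHS1 188 and opposite calls 20. With limma-voom SALL4 gave 1291, VRTN 348, SALL4 against VRTN 897, DSCC1 41, SEPHS1 158 and DSCC1 against SEPHS1 24, and 2 of the 7 genes (LCP1 and FOXP4) were called in opposite directions. With only the groups compared in the fit, SALL4 gave 349, SALL4 against VRTN 193, DSCC1 37, SEPHS1 198 and opposite calls 7. With Luciferase as the only control, SALL4 gave 236, VRTN 89, DSCC1 2, SEPHS1 128 and opposite calls 3, with 1 of the 7 genes (LCP1). With Control siRNA as the only control, SALL4 gave 280, VRTN 95, DSCC1 2, SEPHS1 103 and opposite calls 5. Chosen after seeing the data, control libraries numbered 1 only gave 342 for SALL4, 109 for DSCC1, 103 for DSCC1 against SEPHS1 and 6 opposite calls, with 2 of the 7 genes (LCP1 and FAM20A); those numbered 2 only gave 4 for DSCC1, 137 for SEPHS1, 109 for DSCC1 against SEPHS1 and 7 opposite calls.

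Leaving out each library in turn gave 275 to 924 calls for SALL4, 135 to 341 for VRTN, 248 to 879 for SALL4 against VRTN, 2 to 98 for DSCC1, 135 to 472 for SEPHS1, 22 to 128 for DSCC1 against SEPHS1 and 0 to 1 for Control against Luciferase. Opposite calls ran from 6 to 27, and 3 to 5 of the 7 genes were among them. Of the 7 genes, 0 to 1 were called between the control siRNAs and 0 in the comparisons with DSCC1 or SEPHS1. A control group left with 1 library was assumed to vary like the other groups.

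Replicate numbers are shared by label only. Over 36 pairs of same-numbered libraries, deviations from the group means correlated at -0.32 to 0.36 (median 0.02), above 0.1 in 9 pairs. With the replicate block, DSCC1 gave 15 calls, DSCC1 against SEPHS1 147 and opposite calls 19, and 5 of the 7 genes were called in opposite directions, TRPC4 the added one. Depth limits DMTN and SLC14A2 most, which had 13 to 32 and 21 to 55 counts per VRTN library.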
